A study of Mus musculus with 12 samples.

Results

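The comparison of a gelatin scaffold with a well plate in M medium rests on 6 of the 12 RNA-seq libraries of the study, 3 on the scaffold and 3 on the plate, chosen by their culture labels and not by any measured value. Wild-type mouse primary cells were taken from the muscle layers of the intestine and kept in culture for 28 days. M medium was Advanced DMEM/Ham's F-12 with N2, B27 lacking vitamin A, N-acetylcysteine at 1 mM, HEPES at 10 mM, GlutaMAX at 2 mM and the antibiotic mix ABAM. It also held Noggin at 100 ng/mL, which binds BMP ligands, R-spondin1 at 1 µg/mL, which strengthens Wnt signalling, and Y27632 at 10 µM, an inhibitor of the kinase ROCK. Both groups had all of these, so that the label differs only in the surface: a flat plate (M plate) or a mat of electrospun gelatin fibres (M scaffold). The other 6 libraries were 3 of cells on plates in DMEM with 10% FBS (P plate) and 3 of intestinal muscle strips as positive control. The question addressed was how a fibrous support changes gene expression when the medium is held the same. The labels call the replicates biologically independent, without naming animals.

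The muscle layers of the gut hold smooth muscle, the neurons and glia of the enteric nervous system, interstitial cells of Cajal that pace contraction, fibroblasts, blood and lymphatic vessels, resident macrophages and an outer mesothelium. Gelatin is denatured collagen, a substrate that cells bind and cut with matrix proteases. As further background, on stiff flat surfaces spread cells pull on their matrix through actin and ROCK, and the coactivators YAP and MRTF then move to the nucleus and switch on genes such as Ccn1, Ccn2 and Ankrd1.

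Between 35684422 and 65356837 reads were counted on genes in each library of the plate. The scaffold libraries had 32477783, 34273262 and, in replicate 3, 116643512. The first principal component of the 6 libraries held 51.6% of the variance and separated the groups. M scaffold replicate 3 stood apart from its group on the second, which held 21.5%, at -48.35 against 43.19 and 25.83 for the other two scaffold libraries. It was also the most deeply sequenced library. Smooth muscle markers were present in all 6 libraries, with Acta2 at 920.1 CPM (counts relative to the library total, TMM-scaled and expressed in the usual CPM unit) or more, whereas the T cell markers Cd3d, Cd3e and Cd8a had 0 to 2 counts in each.

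Of 17700 genes tested, 271 were higher on the scaffold (1.53%) and 291 were lower (1.64%) at an adjusted p under 0.05 (edgeR's quasi-likelihood test, with the spread estimated over the 12 libraries). A gene that met this threshold is called higher or lower here, and "rose" and "fell" are used only of such genes, or of genes past the same threshold in another fit where that fit is named. The groups of all 562 called genes did not overlap, while among all genes tested 15.9% had every scaffold library above every plate library and 17.4% had every one below. A call favours genes whose groups lie apart, so the lack of overlap in called genes, here and below, is no further support for them. Fold changes are given as log2 of scaffold over plate with their standard error (SE), so that 1 is a doubling. The median over all genes was 0.01. Of the 17700 genes, 3798 had an unadjusted p under 0.05 in this test.

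**Figure D1:**
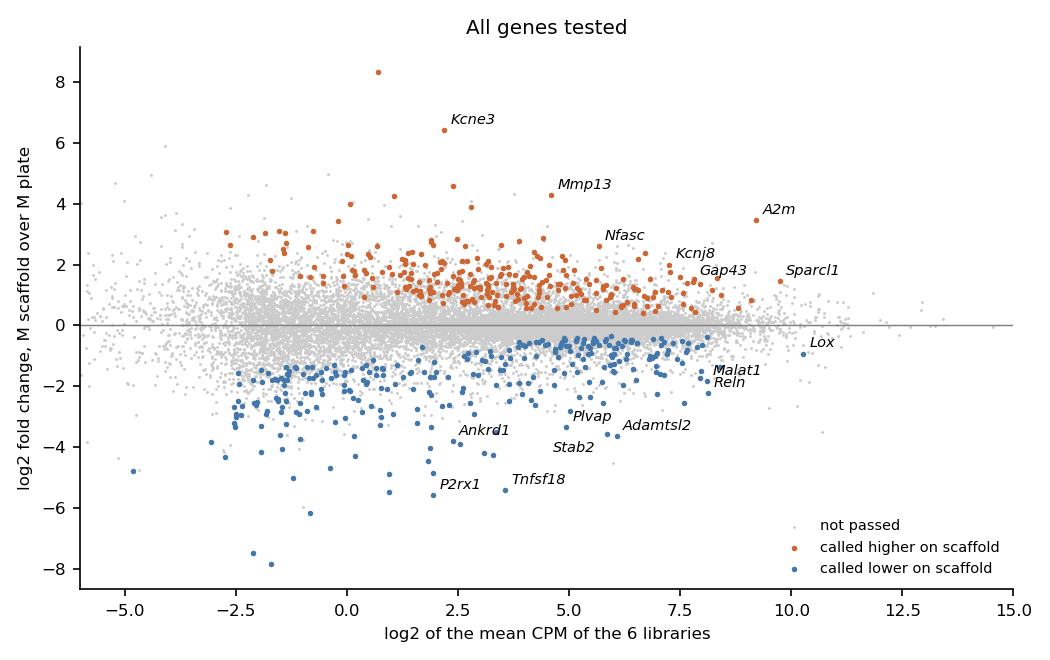
Each point is 1 of the 17700 genes tested, with log2 of its mean CPM over the 6 libraries on the horizontal axis and its log2 fold change, M scaffold over M plate, on the vertical axis. The 271 genes called higher are orange and the 291 called lower are blue. A2m and Mmp13 lie far above 0, and Adamtsl2, Stab2 and Tnfsf18 far below.

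How many genes pass depended strongly on single libraries, which bears on every result below. Leaving out 1 library gave 7 higher and 11 lower genes without M plate replicate 2, 24 and 30 without M plate replicate 3, and 86 and 60 without M plate replicate 1. On the scaffold side the counts were 177 and 131 without replicate 1, 225 and 123 without replicate 2, and 103 and 111 without replicate 3. Same-numbered libraries of both groups deviated together, so a fit with the replicate number as a block was also made within the 6 libraries (the 6-library block). It called 787 genes higher (4.81%) and 931 lower (5.69%) of 16354, of which 237 and 248 were among the calls above. With the block in all 12 libraries (the 12-library block) the counts were 222 (1.25%) and 169 (0.955%). DESeq2 called 6.5% higher and 4.95% lower, and limma-voom 2.59% and 3.08%. For most genes whose call differs between these fits, the adjusted p of the block concerned is given. No called gene changed direction in any fit that held it. The fits reuse the same counts and the groups of called genes did not overlap, so the kept direction is no further support. Of 97 genes picked by a stated rule, 73 were called. Without M plate replicate 2, 69 of these 73 missed the threshold, and A2m, Fndc5, Lax1 and Adamtsl2 were called in all 6 fits with a library left out.

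**Figure D2:**
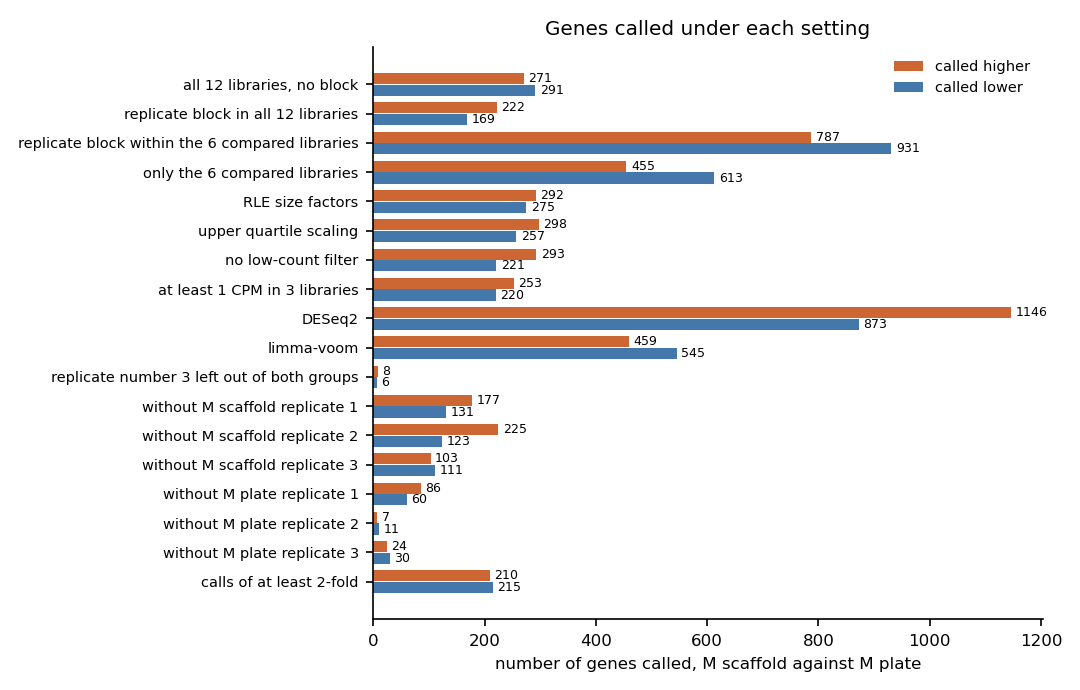
Bars give the number of genes called higher (orange) and lower (blue) on the scaffold under each setting, starting at 0. The number called higher runs from 7 without M plate replicate 2 to 1146 in DESeq2, and the number called lower from 6 with replicate 3 left out of both groups to 931 with the block within the 6 libraries.

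Enzymes that cut the extracellular matrix, and a broad inhibitor of proteases, were among the most raised genes on the scaffold. Of 34 genes in a list of matrix proteases and inhibitors, 5 rose and 0 fell, against 1.53% and 1.64% of all genes, and the median log2 fold change of the list was 0.50 beside 0.01 for all genes. This list and those below were chosen, with their members, when earlier results of these data were known. Their shares of calls and their medians are therefore descriptions. With the 6-library block 10 rose and 2 fell, beside 4.81% and 5.69% of all genes, and with the 12-library block 6 rose and 0 fell, beside 1.25% and 0.955%. The number that rose was 2, 1 and 3 without M plate replicate 1, 2 or 3, and 7, 5 and 3 without M scaffold replicate 1, 2 or 3.

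A2m (ENSMUSG00000030111, chr6:121635376-121679227, plus strand, GRCm38) encodes alpha-2-macroglobulin, which traps proteases of many classes. Its level was 105.4, 89.7 and 103.2 CPM on the plate and 760.6, 1100.1 and 1401.3 CPM on the scaffold. Every scaffold library held several times the level of every plate library. The log2 fold change was 3.45 ± 0.28 (SE), with an adjusted p of 0.00259. Muscle strips had 1.13 CPM on average, so that both cultures were far above the tissue.

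Mmp13 (ENSMUSG00000050578, chr9:7272514-7283331, plus strand) encodes a collagenase that cuts fibrillar collagen. It had 1.75, 2.72 and 2.64 CPM on the plate and 26.9, 32.7 and 78.2 CPM on the scaffold. The highest level was in scaffold replicate 3, and the lowest scaffold library still lay above all plate libraries. The log2 fold change was 4.27 ± 0.80, with an adjusted p of 0.0286. In the 250 bases upstream of its annotated start (RefSeq, GRCm38.p6, chr9:7272264-7272513, plus strand), shown because AP-1 sites are known in promoters of collagenases, a script found the letters TGANTCA 1 time, with the first base at -35. The match is in capitals.
Mmp13: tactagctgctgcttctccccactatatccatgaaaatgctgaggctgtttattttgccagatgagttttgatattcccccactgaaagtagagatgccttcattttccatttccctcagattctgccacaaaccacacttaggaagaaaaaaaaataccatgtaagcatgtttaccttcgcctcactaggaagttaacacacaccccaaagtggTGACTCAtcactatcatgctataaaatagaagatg

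TGANTCA reads the same on both strands, and it was found in 8.09% of the promoter windows of genes called higher, 7.11% of those of genes called lower and 5.64% of those of all genes tested. The windows run from 250 bases before to 50 after the start and came from RefSeq for 203 of 271, 175 of 291 and 12744 of 17700 genes. A match in a window is a description and not a bound site.

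Ctsk, the lysosomal cysteine protease cathepsin K that degrades collagen and gelatin, had 28.7, 29.5 and 43.0 CPM on the plate and 85.7, 184.0 and 190.2 CPM on the scaffold (log2 2.18 ± 0.35, adjusted p 0.0171). Mmp15, a membrane-anchored metalloprotease, had 21, 20.8 and 24.8 against 107.4, 75.6 and 64.2 CPM (log2 1.89 ± 0.24, adjusted p 0.00896). Plat, the tissue plasminogen activator, had 104.3, 93.7 and 124.2 against 210.1, 199.4 and 207.0 CPM (log2 0.94 ± 0.17, adjusted p 0.0252). None of these groups overlapped.

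Other secreted proteases had higher values that missed the threshold in the fit without a block. Mmp3, stromelysin 1, had 23.9, 48.5 and 64.5 CPM on the plate and 77.7, 131.7 and 505.1 CPM on the scaffold (adjusted p 0.0668, and 0.0324 with the 6-library and 0.0412 with the 12-library block). Mmp10, stromelysin 2, had 0.974, 1.52 and 10.0 against 31.7, 42.9 and 49.0 CPM (adjusted p 0.0528, and 0.0323 with the 6-library and 0.0535 with the 12-library block). Mmp2, the gelatinase that cuts denatured collagen, had 565.7, 477.1 and 632.3 against 816.4, 1235.4 and 2020.1 CPM (adjusted p 0.0822, and 0.0492 with the 6-library and 0.0716 with the 12-library block). All scaffold libraries lay above all plate libraries for these genes. The other gelatinase, Mmp9, had 3.12 to 17.1 CPM on the plate and 4.55 to 12.5 CPM on the scaffold, and these ranges overlapped. Timp3, a matrix-bound inhibitor of metalloproteases, had 1521.7, 1188.7 and 1285.4 against 661.0, 428.5 and 664.6 CPM (adjusted p 0.143, and 0.0237 with the 6-library and 0.18 with the 12-library block).

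**Figure D3:**
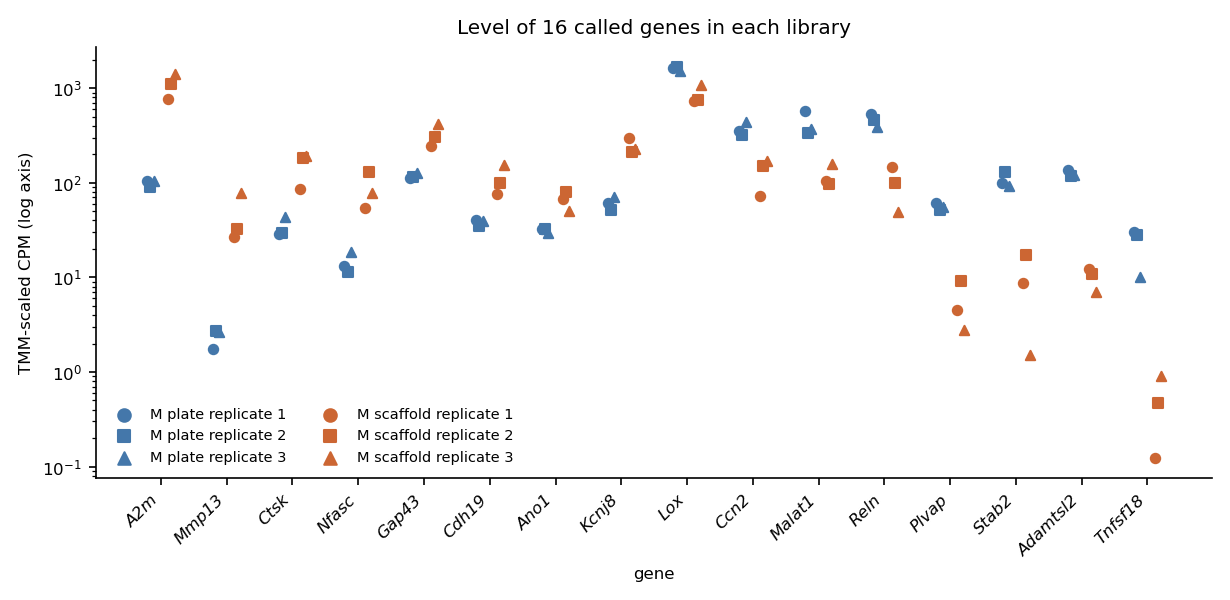
Level of 16 called genes in each library, in TMM-scaled CPM on a log axis, with M plate in blue and M scaffold in orange and a marker shape for each replicate number. A2m, Mmp13, Ctsk and Nfasc are higher in every scaffold library, and Plvap, Stab2, Adamtsl2 and Tnfsf18 lower in every one.

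Adamtsl2 and Lox, which act in elastic fibres, fell on the scaffold. Elastic fibres are a core of elastin on fibrillin microfibrils, crosslinked by lysyl oxidase. Of 33 matrix glycoproteins and elastic fibre genes, 2 fell and 0 rose, a share of lower calls above the 1.64% of all genes, but the list's median of 0.05 was close to that of all genes. The 6-library block gave 5 higher and 6 lower calls (4.81% and 5.69% of all genes) and the 12-library block 0 and 2 (1.25% and 0.955%).

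Adamtsl2 (ENSMUSG00000036040, chr2:27079379-27108981, plus strand) encodes a secreted glycoprotein of the microfibrils. It had 136.2, 117.4 and 120.0 CPM on the plate and 12.2, 10.8 and 7.0 CPM on the scaffold. The scaffold libraries were close to each other and about an order of magnitude below the plate. The log2 fold change was -3.64 ± 0.41, with an adjusted p of 0.00845.

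Lox, the lysyl oxidase that crosslinks elastin and collagen, had 1633.8, 1691.6 and 1530.8 CPM on the plate and 734.3, 742.4 and 1079.6 CPM on the scaffold (log2 -0.93 ± 0.18, adjusted p 0.0311). Eln, elastin itself, had 3383.0, 2744.5 and 3034.8 against 269.0, 192.4 and 351.5 CPM. Its groups lay far apart with a log2 fold change of -3.49 ± 0.85, yet the adjusted p was 0.0545, and 0.0164 with the 6-library and 0.0801 with the 12-library block. Fbln5, fibulin 5, which guides elastin assembly, had 602.9, 414.4 and 391.3 against 171.2, 165.7 and 86.2 CPM (adjusted p 0.0696, and 0.0208 with the 6-library and 0.104 with the 12-library block). Fbn1, fibrillin 1, had 991.5, 641.7 and 853.8 against 489.8, 376.4 and 599.4 CPM (adjusted p 0.141, and 0.0407 with the 6-library and 0.11 with the 12-library block).

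The fibrillar collagens and fibronectin showed no call. Col1a1 had 5218.9, 5574.6 and 6838.0 CPM on the plate and 7744.7, 9168.9 and 12976.9 CPM on the scaffold (log2 0.76 ± 0.26, adjusted p 0.126), and its groups did not overlap. Fn1, fibronectin, had 5733.7, 5804.3 and 6844.1 against 5112.8, 3784.0 and 5820.3 CPM (log2 -0.32 ± 0.41, adjusted p 0.702), with overlap. Of 39 collagen chains 1 rose and 1 fell, which is 2.56% in each direction beside 1.53% and 1.64% of all genes. For the collagen chains the 6-library block gave 9 higher and 4 lower calls (4.81% and 5.69% of all genes) and the 12-library block 1 and 1 (1.25% and 0.955%). Col23a1, a transmembrane collagen, fell from 149.3, 157.7 and 113.1 to 62.8, 41.7 and 16.6 CPM (log2 -1.80 ± 0.38, adjusted p 0.0399). Col26a1 rose from 0.487, 0.406 and 0.44 to 2.21, 3.39 and 1.33 CPM (log2 2.36 ± 0.32, adjusted p 0.0102). Lamb1, the beta 1 chain of laminins, was the only call among 31 integrin and laminin genes, with 381.0, 359.8 and 444.6 against 574.9, 783.4 and 749.8 CPM (log2 0.83 ± 0.19, adjusted p 0.0473, and 0.0667 with the 12-library block).

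Ccn2, Ankrd1 and Crim1, target genes of YAP and MRTF, fell on the scaffold, and both groups had the ROCK inhibitor. Of 24 such genes 3 fell and 0 rose, beside 1.64% and 1.53% of all genes, with a list median of -0.39. The 6-library block gave 0 higher and 11 lower calls (4.81% and 5.69% of all genes) and the 12-library block 0 and 1 (1.25% and 0.955%). DESeq2 called 8 lower and 3 higher (4.95% and 6.5% of all genes). Without any 1 of the 3 plate libraries, or without M scaffold replicate 3, 0 of the list fell, and 1 fell without M scaffold replicate 1 or 2. The summed level of the list was 6830.8 to 8324.1 CPM on the plate and 3943.6 to 5618.4 CPM on the scaffold.

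Ccn2 (ENSMUSG00000019997, chr10:24595442-24598683, plus strand), the matricellular factor CTGF, had 350.7, 323.3 and 438.5 CPM on the plate and 71.9, 150.8 and 168.1 CPM on the scaffold. No library of the scaffold reached the plate level. The log2 fold change was -1.51 ± 0.34, with an adjusted p of 0.0459, and 0.0542 with the 12-library block. Ankrd1, a nuclear and sarcomeric ankyrin protein, had 7.54, 9.14 and 12.5 against 0.184, 1.71 and 0.316 CPM (log2 -3.81 ± 0.88, adjusted p 0.0466, and 0.0832 with the 12-library block). Crim1, a transmembrane protein that binds BMP and other growth factors, had 586.3, 434.0 and 437.6 against 226.5, 220.9 and 123.2 CPM (log2 -1.35 ± 0.27, adjusted p 0.0311, and 0.0516 with the 12-library block).

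Further members had lower values without a call. Ccn1, the matricellular factor CYR61, had 258.5, 266.8 and 564.1 CPM on the plate and 102.5, 121.1 and 339.3 CPM on the scaffold (adjusted p 0.302). The groups of Ccn1 overlapped, because replicate 3 was high in both, and within same-numbered pairs it was lower 3 of 3 times (adjusted p 0.0255 with the 6-library and 0.142 with the 12-library block). Amotl2, a regulator of YAP that is also its target, had 452.6, 527.1 and 467.3 against 140.9, 222.5 and 288.0 CPM (adjusted p 0.0556, and 0.0359 with the 6-library and 0.0337 with the 12-library block). Ajuba, a LIM protein of cell junctions, had 102.2, 101.6 and 102.3 against 61.4, 59.0 and 44.3 CPM (adjusted p 0.0994, and 0.025 with the 6-library and 0.147 with the 12-library block). The receptor kinase Axl, also a target, had 456.8 to 544.4 CPM on the plate and 451.2 to 618.4 CPM on the scaffold.

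TEAD factors carry YAP to DNA at sites that hold GGAATG, searched on both strands in the promoter windows. The letters were found in 17.2% of the windows of genes called lower, 12.5% of those of genes called higher and 12.8% of those of all genes tested. The 250 bases upstream of the start are shown for Crim1, which fell, and Ccn1, which was not called, as examples with the letters in capitals. They were picked because they hold a match, and the same letters were not found in the upstream windows of Adamtsl2, Stab2 and Reln, which fell. In Crim1 (chr17:78199998-78200247, plus strand) the match begins at -79. In Ccn1 (chr3:145649986-145650235, minus strand) it begins at -103 and is on the opposite strand of the gene, so that it reads CATTCC.
Crim1: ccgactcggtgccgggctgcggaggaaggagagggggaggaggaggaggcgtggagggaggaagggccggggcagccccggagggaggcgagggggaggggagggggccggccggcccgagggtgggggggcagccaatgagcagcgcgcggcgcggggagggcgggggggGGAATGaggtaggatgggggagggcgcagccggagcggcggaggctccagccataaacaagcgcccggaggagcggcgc
Ccn1: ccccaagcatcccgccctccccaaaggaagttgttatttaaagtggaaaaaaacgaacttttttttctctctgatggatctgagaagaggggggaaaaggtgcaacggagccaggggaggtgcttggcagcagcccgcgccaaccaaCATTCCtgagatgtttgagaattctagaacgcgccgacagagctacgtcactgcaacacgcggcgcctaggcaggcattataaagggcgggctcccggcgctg

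Genes of enteric glia and the Schwann lineage were higher on the scaffold. These cells derive from the neural crest, depend on the factor Sox10 and wrap or support neurons. Of 20 genes 8 rose and 0 fell, beside 1.53% of all genes called higher, with a list median of 1.13. With the 6-library block 9 rose and 0 fell, beside 4.81% and 5.69% of all genes, and with the 12-library block 8 rose and 0 fell, beside 1.25% and 0.955%. None rose without any 1 of the plate libraries or without M scaffold replicate 3, and 6 and 4 rose without M scaffold replicate 1 and 2. In bulk RNA, more cells of a type and more RNA per cell cannot be told apart.

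S100b, a calcium-binding protein used as a glial marker, had 5.24, 4.19 and 6.29 CPM on the plate and 10.4, 11.5 and 29.1 CPM on the scaffold (log2 1.70 ± 0.37, adjusted p 0.0421). Foxd3, a factor of neural crest cells, had 11.7, 10.2 and 16.1 against 33.7, 33.9 and 68.3 CPM (log2 1.83 ± 0.36, adjusted p 0.0299). In both genes scaffold replicate 3 was the highest of the 6 libraries.

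Ngfr, the p75 neurotrophin receptor, had 160.3, 123.2 and 209.1 CPM on the plate and 303.5, 460.7 and 672.9 CPM on the scaffold (log2 1.54 ± 0.34, adjusted p 0.0431). Cdh19, a cadherin of the Schwann lineage, had 40.7, 34.6 and 39.9 against 75.4, 100.4 and 154.2 CPM (log2 1.52 ± 0.28, adjusted p 0.026). Erbb3, the receptor for neuregulin, had 34.6, 27.7 and 37.3 against 56.4, 71.0 and 98.5 CPM (log2 1.18 ± 0.22, adjusted p 0.0289). L1cam, an adhesion molecule of axons and glia, also rose (log2 1.18 ± 0.28, adjusted p 0.0481).

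Sox10 had 34.3, 32.1 and 49.3 CPM on the plate and 66.1, 77.9 and 165.8 CPM on the scaffold, without overlap (adjusted p 0.0711, and 0.0238 with the 6-library and 0.0243 with the 12-library block). Gfap, the intermediate filament of reactive glia, had 6.05, 6.04 and 6.9 against 5.87, 6.03 and 15.9 CPM (adjusted p 0.507). Only scaffold replicate 3 was above the plate for Gfap. Mbp, a myelin protein, and Ednrb, the endothelin B receptor, lay lower in every scaffold library without a call, with log2 fold changes of -0.49 ± 0.35 and -0.65 ± 1.15. Ednrb had 54.9 CPM in scaffold replicate 3 against 192.1 and 188.5 CPM in the other two.

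Nfasc (ENSMUSG00000026442, chr1:132564690-132741797, minus strand), the adhesion molecule neurofascin of axons and glia, was not in the list, and its log2 fold change exceeded that of each called glial gene. It had 13.1, 11.4 and 18.6 CPM on the plate and 53.6, 129.2 and 78.8 CPM on the scaffold (log2 2.6 ± 0.31, adjusted p 0.00896). It lost its call only without M plate replicate 2. Fndc5, the precursor of irisin, had 5.44, 5.2 and 6.95 against 21.8, 40.2 and 32.2 CPM (log2 2.42 ± 0.24, adjusted p 0.00359).

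Neuronal genes were higher as a list, with fewer single calls. Of 30 genes 4 rose (13.3%, beside 1.53% of all genes) and 0 fell, with a median of 1.05, and 21 of the 30 had every scaffold library above every plate library, beside 15.9% of all genes. The 6-library block gave 16 higher and 0 lower calls (4.81% and 5.69% of all genes) and the 12-library block 5 and 0 (1.25% and 0.955%). The number that rose was 2, 0 and 0 without M plate replicate 1, 2 or 3, and 1 without any 1 of the scaffold libraries. The summed level was 534.4 to 761.8 CPM on the plate and 1187.3 to 1700.4 CPM on the scaffold.

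Gap43, a protein of growing axons, had 113.6, 116.3 and 125.9 CPM on the plate and 243.3, 303.9 and 416.4 CPM on the scaffold (log2 1.44 ± 0.26, adjusted p 0.0268). Syp, synaptophysin of synaptic vesicles, had 10.2, 4.47 and 7.88 against 18.7, 16.5 and 22.4 CPM (log2 1.35 ± 0.29, adjusted p 0.0409). Uchl1, a deubiquitinase abundant in neurons, had 38.5, 24.8 and 33.7 against 69.8, 76.6 and 99.2 CPM (log2 1.34 ± 0.30, adjusted p 0.0451). The vesicle calcium sensor Syt1 had 11.4, 5.89 and 7.2 against 21.4, 18.7 and 16.5 CPM (log2 1.21 ± 0.23, adjusted p 0.0294). M plate replicate 2 was the lowest library for Syp, Uchl1 and Syt1.

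Markers of the main transmitter classes did not pass without a block. Nos1, which makes nitric oxide in inhibitory motor neurons, had 90.7, 38.4 and 71.1 CPM on the plate and 167.8, 111.7 and 238.9 CPM on the scaffold (adjusted p 0.092, and 0.0248 with the 6-library and 0.0584 with the 12-library block). Vip, the vasoactive intestinal peptide of the same neurons, had 47.7, 32.4 and 25.2 against 109.2, 68.5 and 118.3 CPM (adjusted p 0.239, and 0.0342 with the 6-library and 0.297 with the 12-library block). Chat, which makes acetylcholine, had 0.457 to 0.774 CPM on the plate and 0.541 to 1.2 CPM on the scaffold, with overlap. Tubb3, neuronal tubulin, had 37.9, 28.0 and 49.4 against 70.5, 91.1 and 108.7 CPM (adjusted p 0.228, and 0.0255 with the 6-library and 0.203 with the 12-library block). Elavl4, an RNA-binding protein of neurons, had 12.8, 5.51 and 7.99 against 17.6, 18.3 and 17.2 CPM (adjusted p 0.111). All of these except Chat had no overlap.

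**Figure D4:**
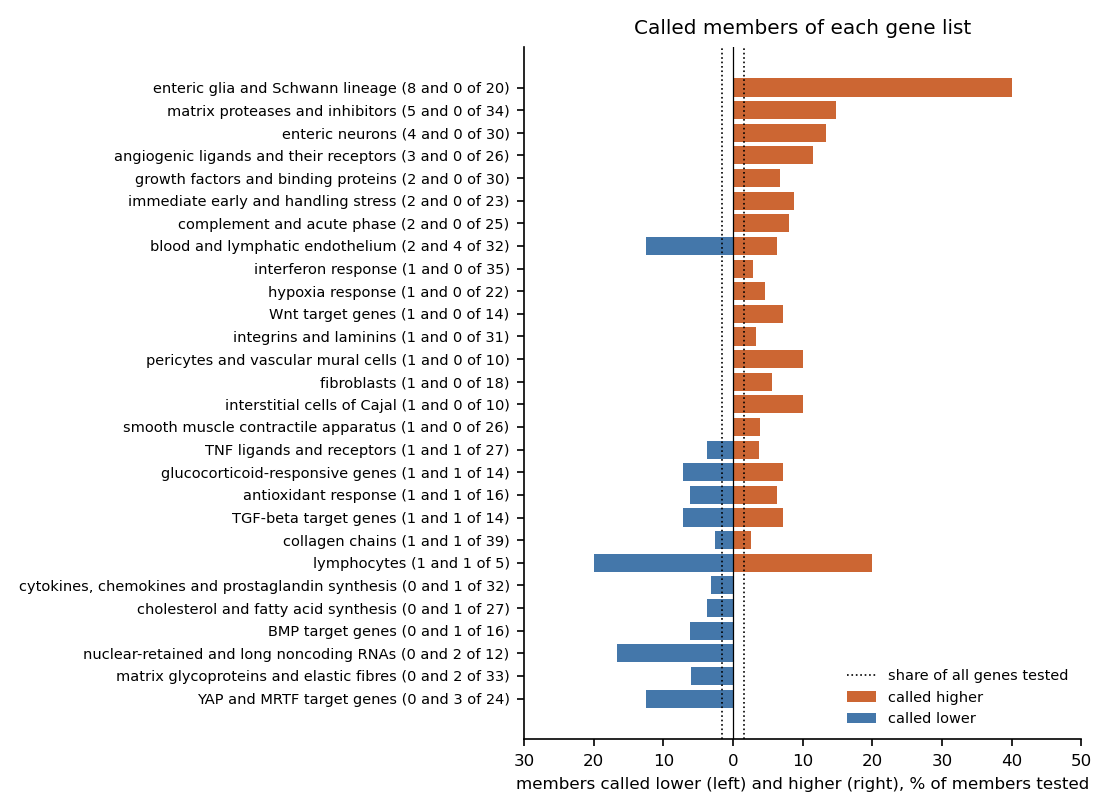
Each bar is the share of the tested members of a gene list called higher (right, orange) or lower (left, blue) on the scaffold, with both numbers and the number tested in brackets. Dotted lines mark the shares of all genes, 1.53% higher and 1.64% lower, and the glial list has the longest bar, with 8 of 20. The lists were chosen with earlier results of these data known.

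Interstitial cells of Cajal carry the chloride channel Ano1, which drives their pacemaker current, and the receptor Kit, on which they depend. Ano1 rose from 32.4, 32.1 and 29.7 CPM on the plate to 67.8, 80.0 and 50.5 CPM on the scaffold (log2 1.07 ± 0.20, adjusted p 0.0289). Kit had 15.7, 14.2 and 10.6 against 49.7, 38.7 and 7.41 CPM, so that scaffold replicate 3 was below the plate and the other two scaffold libraries above it (log2 1.24 ± 0.51, adjusted p 0.198). Ano1 was the 1 call among 10 genes of the list, whose median was 1.16, beside 1.53% of all genes called higher. With the 6-library block 4 of the list rose (4.81% of all genes did), and with the 12-library block 1 rose (1.25%). Thbs4, thrombospondin 4, had 85.1, 93.1 and 59.3 against 276.8, 635.6 and 646.2 CPM (adjusted p 0.118, and 0.0254 with the 6-library and 0.143 with the 12-library block).

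The contractile genes of smooth muscle varied widely within the scaffold group. Of 26 genes 1 rose and 0 fell, which is 3.85% beside 1.53% of all genes, with a median of 0.82. The 6-library block gave 11 higher and 0 lower calls (4.81% and 5.69% of all genes) and the 12-library block 0 and 0 (1.25% and 0.955%). Myh11, the smooth muscle myosin heavy chain, had 1401.2, 696.1 and 1139.2 CPM on the plate and 2471.1, 832.0 and 1703.4 CPM on the scaffold (log2 0.63 ± 0.47, adjusted p 0.479). Actg2, the actin of gut smooth muscle, had 684.7, 322.0 and 550.7 against 1855.3, 305.3 and 1763.3 CPM (log2 1.33 ± 0.67, adjusted p 0.285). Replicate 2 was lowest in both groups for both genes.

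Des, desmin, had 831.4, 421.7 and 673.7 CPM on the plate and 2059.3, 486.1 and 1897.9 CPM on the scaffold (adjusted p 0.219). Acta2, the alpha actin shared with myofibroblasts, had 1486.2, 920.1 and 1555.5 against 2369.3, 1116.0 and 1840.1 CPM (adjusted p 0.538). Tagln, transgelin, had 116.8, 69.4 and 106.9 against 179.1, 87.2 and 249.1 CPM (adjusted p 0.283). These groups overlapped. Mylk, the kinase that starts contraction, had 1182.0, 825.1 and 1110.4 against 3239.8, 1442.1 and 1726.9 CPM, without overlap (adjusted p 0.0729, and 0.0486 with the 6-library and 0.088 with the 12-library block). The called member was Mrvi1, a partner of cGMP-dependent kinase in relaxation, with 95.5, 71.1 and 78.4 against 193.4, 151.7 and 123.0 CPM (log2 0.93 ± 0.18, adjusted p 0.0311, and 0.0511 with the 12-library block).

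Among 10 pericyte genes the call was Kcnj8, the pore of a potassium channel gated by ATP, which had 61.5, 51.7 and 70.3 CPM on the plate and 297.7, 209.0 and 225.7 CPM on the scaffold (log2 2.00 ± 0.36, adjusted p 0.0255). Its partner subunit Abcc9 had 112.5, 88.8 and 115.2 against 309.3, 209.7 and 203.2 CPM (adjusted p 0.0813, and 0.023 with the 6-library and 0.0983 with the 12-library block). Both genes are also expressed outside pericytes. Rgs5, a regulator of G protein signalling in pericytes, had 136.1, 64.9 and 97.1 against 284.3, 87.8 and 178.5 CPM, with overlap. Pdgfrb, the PDGF receptor of mural cells, had 209.7 to 324.4 CPM on the plate and 305.0 to 388.0 CPM on the scaffold. The call of Kcnj8 is 10% of the pericyte list, beside 1.53% of all genes called higher, with a list median of 0.81. With the 6-library block 3 members rose and 0 fell, beside 4.81% and 5.69% of all genes. With the 12-library block 1 rose and 0 fell, beside 1.25% and 0.955%.

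Fibroblast genes showed 1 call of 18, the complement component C7, with 5.73, 5.1 and 3.84 CPM on the plate and 17.4, 28.1 and 8.35 CPM on the scaffold (log2 1.88 ± 0.44, adjusted p 0.0481, and 0.0562 with the 12-library block). Pdgfra, the PDGF receptor that marks gut fibroblasts, had 486.2, 1171.1 and 1131.1 against 1139.9, 2262.0 and 996.0 CPM (log2 0.66 ± 0.46, adjusted p 0.447). The call of C7 is 5.56% of the fibroblast list, beside 1.53% of all genes called higher, and the list median was 0.37. For fibroblast genes the 6-library block gave 2 higher and 0 lower calls (4.81% and 5.69% of all genes). The 12-library block gave 0 and 0 (1.25% and 0.955%). Mki67, a marker of dividing cells, had a mean of 56.5 ± 6.26 CPM (SD) on the plate and 46.3 ± 7.99 CPM (SD) on the scaffold, with overlap (adjusted p 0.659). Of 29 cell cycle genes 0 passed in edgeR without a block, DESeq2 or limma-voom and 0 had an unadjusted p under 0.05, with a list median of -0.08. Among the cell cycle genes the 6-library block gave 1 higher and 0 lower calls (4.81% and 5.69% of all genes). The 12-library block gave 0 and 0 (1.25% and 0.955%).

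The endothelial genes Plvap, Stab2, Reln and Emcn fell on the scaffold, with their lowest levels in scaffold replicate 3. Of 32 genes of blood and lymphatic endothelium 4 fell (12.5%, beside 1.64% of all genes) and 2 rose, with a list median of -1.26. The 6-library block gave 3 higher and 8 lower calls (4.81% and 5.69% of all genes) and the 12-library block 1 and 4 (1.25% and 0.955%). The number that fell was 1, 0 and 1 without M plate replicate 1, 2 or 3, and 2, 3 and 4 without M scaffold replicate 1, 2 or 3, with partly different genes. The summed level was 9554.9 to 11044.1 CPM on the plate and 5093.9, 3858.4 and 1323.7 CPM in scaffold replicates 1 to 3. The scaffold libraries thus differed widely from each other.

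Plvap (ENSMUSG00000034845), which forms the diaphragms of endothelial pores, had 60.4, 51.1 and 55.1 CPM on the plate and 4.49, 9.26 and 2.79 CPM on the scaffold (log2 -3.35 ± 0.45, adjusted p 0.00969). Stab2, a hyaluronan receptor of sinusoidal and lymphatic endothelium, had 99.2, 128.6 and 93.2 against 8.76, 17.2 and 1.52 CPM (log2 -3.56 ± 0.72, adjusted p 0.0324). Reln, reelin, which lymphatic vessels secrete, had 531.2, 460.1 and 385.3 against 146.1, 99.2 and 48.6 CPM (log2 -2.23 ± 0.39, adjusted p 0.0243). Emcn, the sialomucin of veins and capillaries, had 5.93, 8.37 and 8.24 against 0.983, 2.17 and 0.541 CPM (log2 -2.64 ± 0.49, adjusted p 0.0276). All 4 had groups that lay far apart.

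The defining endothelial markers lay between the plate level and these strong falls. Pecam1, the adhesion molecule CD31, had 308.6, 350.8 and 314.1 CPM on the plate and 234.8, 174.8 and 37.0 CPM on the scaffold (log2 -1.13 ± 0.62, adjusted p 0.331). Cdh5, the cadherin of endothelial junctions, had 428.5, 524.8 and 420.7 against 384.9, 243.5 and 56.9 CPM (log2 -1.0 ± 0.52, adjusted p 0.298). Kdr, the main VEGF receptor, had 333.8, 321.5 and 217.1 against 253.4, 129.2 and 30.6 CPM (log2 -1.08 ± 0.57, adjusted p 0.311). Scaffold replicate 1 was near the plate and replicate 3 far below it for these genes.

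The lymphatic markers had the same order of libraries. Prox1, the factor that sets lymphatic identity, had 246.6, 224.7 and 205.4 CPM on the plate and 155.1, 77.4 and 15.1 CPM on the scaffold (adjusted p 0.203). Lyve1, a hyaluronan receptor of lymphatic vessels and of some macrophages, had 1709.8, 2175.0 and 1628.6 against 803.0, 680.0 and 96.3 CPM (adjusted p 0.199). Mmrn1, multimerin 1, had 1377.7, 1291.7 and 1088.0 against 281.9, 253.8 and 35.5 CPM (adjusted p 0.0537, and 0.0447 with the 6-library and 0.0877 with the 12-library block). Ccl21a, a chemokine of lymphatic vessels whose near-identical copies make its counts uncertain, had 200.7, 125.6 and 101.2 against 57.8, 27.9 and 6.18 CPM (adjusted p 0.084, and 0.0387 with the 6-library and 0.0768 with the 12-library block).

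The members of the list that rose were Apln and Esm1, both products of endothelial tip cells that are not restricted to them. Apln, the peptide apelin, had 3.5, 7.38 and 4.4 CPM on the plate and 24.4, 20.7 and 67.5 CPM on the scaffold (log2 2.88 ± 0.64, adjusted p 0.0428, and 0.0768 with the 12-library block). Esm1, endocan, had 0.344, 0.533 and 0.503 against 1.11, 1.12 and 1.99 CPM (log2 1.62 ± 0.36, adjusted p 0.0452). Flt1, a VEGF receptor that also acts as a decoy, had 31.5, 45.8 and 48.7 against 53.9, 92.0 and 112.4 CPM (adjusted p 0.30, and 0.0211 with the 6-library and 0.362 with the 12-library block).

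**Figure D5:**
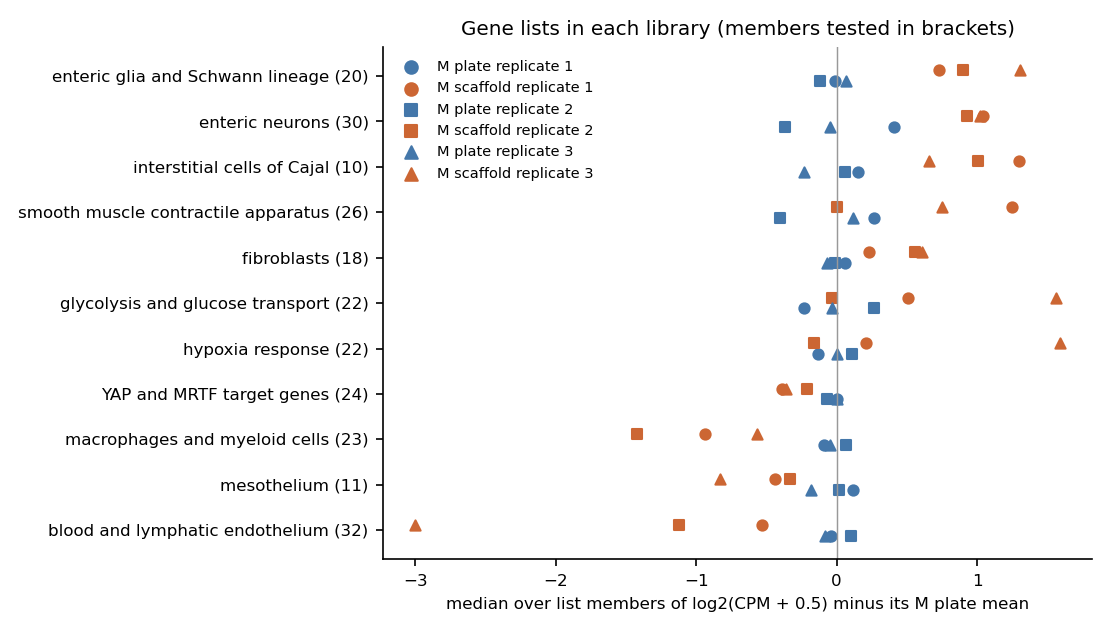
Each marker is the median over the tested members of a list of log2(CPM + 0.5) minus the M plate mean of the gene, for 1 library, with the replicate number as marker shape. The endothelial list is at -0.53, -1.12 and -3.0 in scaffold replicates 1 to 3, while the neuronal list is at 1.04, 0.93 and 1.02.

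Macrophage genes had lower values without a call. Of 23 genes 0 passed in edgeR's test, 4 fell in DESeq2 (4.95% of all genes did) and 1 fell in limma-voom (3.08%). An unadjusted p under 0.05 was found for 7 of them, beside 3798 of all 17700 genes. The list median was -1.0, and 13 had every scaffold library below every plate library, beside 17.4% of all genes. The 6-library block gave 1 higher and 8 lower calls (4.81% and 5.69% of all genes) and the 12-library block 0 and 0 (1.25% and 0.955%). Csf1r, the receptor for the growth factor of macrophages, had 349.5, 232.1 and 234.5 CPM on the plate and 98.7, 53.9 and 116.6 CPM on the scaffold (adjusted p 0.17, and 0.0266 with the 6-library and 0.18 with the 12-library block). Mrc1, the mannose receptor of resident macrophages, had 791.8, 591.3 and 597.3 against 286.7, 189.5 and 185.9 CPM (adjusted p 0.334, and 0.0164 with the 6-library and 0.27 with the 12-library block). Fcgr1, an IgG receptor, had 26.0, 26.6 and 16.6 against 5.81, 3.32 and 5.06 CPM (adjusted p 0.0673, and 0.0226 with the 6-library and 0.0667 with the 12-library block).

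Ptprc, the pan-leukocyte marker CD45, had 56.4, 67.5 and 52.3 CPM on the plate and 31.4, 19.6 and 34.5 CPM on the scaffold (adjusted p 0.375). Cd68, a lysosomal protein of macrophages, had 233.1, 209.1 and 317.0 against 178.0, 115.4 and 234.6 CPM, with overlap (adjusted p 0.659). Not all macrophage genes were lower: Spp1, osteopontin, had 244.0, 158.8 and 516.8 against 368.9, 293.9 and 1274.9 CPM (adjusted p 0.508, and 0.0368 with the 6-library and 0.512 with the 12-library block). P2ry13, an ADP receptor of myeloid cells, fell from 13.8, 9.74 and 9.45 to 0.83, 0.745 and 0.622 CPM (log2 -3.92 ± 0.85, adjusted p 0.0409). Trac, the constant region of the T cell receptor alpha chain, fell from 9.69, 13.2 and 12.1 to 1.41, 2.86 and 1.71 CPM (log2 -2.55 ± 0.58, adjusted p 0.046, and 0.064 with the 12-library block), while the T cell markers Cd3d and Cd3e had 0 to 2 counts in every library. Il7r, the interleukin 7 receptor, rose from 0.63, 0.457 and 1.78 to 6.57, 3.04 and 9.89 CPM (log2 2.74 ± 0.60, adjusted p 0.0413).

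Mesothelial genes were also lower in value, with 0 calls of 11 in edgeR, DESeq2 and limma-voom and 0 at an unadjusted p under 0.05, and a median of -0.67. In this list the 6-library block gave 0 higher and 4 lower calls (4.81% and 5.69% of all genes) and the 12-library block 0 and 0 (1.25% and 0.955%). Upk3b, a uroplakin of mesothelium, had 1045.0, 952.4 and 806.6 CPM on the plate and 545.9, 695.4 and 381.3 CPM on the scaffold (adjusted p 0.449, and 0.0442 with the 6-library and 0.448 with the 12-library block). Msln, mesothelin, had 344.9, 270.6 and 244.5 against 149.2, 179.6 and 159.6 CPM (adjusted p 0.565, and 0.0441 with the 6-library and 0.572 with the 12-library block).

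Several secreted signals changed. Tnfsf18 (ENSMUSG00000066755, chr1:161494655-161505290, plus strand), the ligand GITRL of the TNF family, had 30.4, 28.3 and 10.1 CPM on the plate and 0.123, 0.466 and 0.902 CPM on the scaffold (log2 -5.41 ± 0.74, adjusted p 0.0102). Btc, betacellulin, a ligand of EGF receptors, had 10.6, 6.93 and 10.9 against 25.3, 24.8 and 61.7 CPM (log2 1.98 ± 0.39, adjusted p 0.0311). Ntf3, neurotrophin 3, had 0.974, 0.914 and 1.43 against 3.93, 4.44 and 5.04 CPM (log2 2.01 ± 0.26, adjusted p 0.00896). Angptl2, a secreted protein related to angiopoietins, had 119.3, 95.2 and 118.3 against 219.4, 190.3 and 461.5 CPM (log2 1.39 ± 0.32, adjusted p 0.0479, and 0.0526 with the 12-library block). The groups of all of these were apart.

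Both groups had R-spondin1 and Noggin, and the target lists of Wnt and BMP signalling held 1 call each, beside 1.53% of all genes called higher and 1.64% called lower. Nkd2, a feedback inhibitor of Wnt signalling, was the 1 call of 14 Wnt target genes, with 57.3, 35.6 and 58.4 CPM on the plate and 128.9, 100.1 and 137.7 CPM on the scaffold (log2 1.28 ± 0.25, adjusted p 0.0305). Sfrp4, a secreted Wnt antagonist outside that list, had 1.17, 0.634 and 0.802 against 26.2, 2.27 and 10.2 CPM (log2 3.89 ± 0.88, adjusted p 0.0455, and 0.0768 with the 12-library block). Of 16 BMP target genes 1 fell, Gata2, a factor of blood and endothelium, with 11.8, 13.0 and 10.0 against 4.79, 4.04 and 2.51 CPM (log2 -1.63 ± 0.37, adjusted p 0.0469, and 0.0738 with the 12-library block). The inhibitory Smad gene Smad6 had 41.6, 38.4 and 42.1 against 20.1, 17.1 and 15.2 CPM (adjusted p 0.0697, and 0.0188 with the 6-library and 0.0928 with the 12-library block). The BMP list median was -0.56, and 4 of its genes fell with the 6-library block (5.69% of all genes did) and 0 with the 12-library block (0.955%).

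Genes of glycolysis and of the hypoxia response were set apart by 1 library. The median of 22 glycolysis genes against the plate mean was 0.51, -0.03 and 1.56 in scaffold replicates 1 to 3, and that of 22 hypoxia genes was 0.21, -0.16 and 1.59. None of the glycolysis genes passed in edgeR's test, with either block or in limma-voom, 4 rose in DESeq2 and 13 had an unadjusted p under 0.05. Without M scaffold replicate 2, 4 glycolysis genes rose. Slc2a1, the glucose transporter GLUT1, had 42.1, 59.2 and 46.0 CPM on the plate and 84.8, 73.9 and 529.7 CPM on the scaffold (adjusted p 0.0933, and 0.194 with the 6-library and 0.176 with the 12-library block). Vegfa, a vascular growth factor induced by low oxygen, had 28.9, 38.1 and 46.3 against 44.3, 26.9 and 229.4 CPM (adjusted p 0.234).

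Egln3, an oxygen-dependent prolyl hydroxylase, was the 1 call of the hypoxia list. It had 31.5, 35.8 and 33.5 CPM on the plate and 129.6, 49.2 and 345.3 CPM on the scaffold (log2 2.38 ± 0.54, adjusted p 0.0456), and its call was lost with both blocks (adjusted p 0.0972 with the 6-library and 0.0814 with the 12-library block). The core of the hypoxia element, ACGTG, on both strands, was in 20.6% of the windows of genes called higher, 18.8% of those of genes called lower and 23.8% of those of all genes. The library high in these genes, scaffold replicate 3, was the one lowest in endothelial genes and highest in S100b and Mmp13. The part of this in those results was not tested. Without it the counts were 103 higher and 111 lower, and the glial list had 0 rises. In the endothelial list Plvap, Reln, Stab2 and Robo4 then fell, while Emcn was no longer called.

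The noncoding RNAs Malat1 and Meg3 fell. Malat1 (ENSMUSG00000092341, a long noncoding RNA of nuclear speckles) had 576.8, 336.1 and 367.5 CPM on the plate and 104.0, 97.3 and 158.2 CPM on the scaffold (log2 -1.83 ± 0.33, adjusted p 0.0255). Meg3, an imprinted noncoding RNA, had 41.9, 46.4 and 44.8 against 12.8, 18.1 and 14.3 CPM (log2 -1.56 ± 0.35, adjusted p 0.0433, and 0.064 with the 12-library block). Neat1, the core of paraspeckles, had 230.9, 367.4 and 424.8 against 53.7, 114.2 and 174.6 CPM (adjusted p 0.075, and 0.0208 with the 6-library and 0.091 with the 12-library block). Malat1 and Meg3 were the 2 calls of 12 nuclear-retained and long noncoding RNAs, or 16.7% beside 1.64% of all genes called lower, and the 6-library block gave 5 lower and 1 higher (5.69% and 4.81%) and the 12-library block 1 lower and 0 higher (0.955% and 1.25%). H19, an imprinted noncoding RNA that is mostly cytoplasmic, had 1943.9, 2497.3 and 2680.8 against 5141.4, 4209.2 and 5529.0 CPM (adjusted p 0.0576, and 0.0386 with the 6-library and 0.0768 with the 12-library block). For reads outside annotated features the share was 5.92% to 6.66% on the plate and 4.62% to 5.29% on the scaffold, and their part in these results was not tested.

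The other genes with the largest changes follow, most of them in no list. Slco4a1, an organic anion transporter, had 12.6, 18.0 and 25.5 CPM on the plate and 0.43, 1.27 and 1.17 CPM on the scaffold (log2 -4.26 ± 0.59, adjusted p 0.0102). Lax1, an adaptor of lymphocyte signalling, had 18.4, 15 and 23.4 against 2.52, 1.77 and 0.821 CPM (log2 -3.50 ± 0.40, adjusted p 0.00845). Ramp3, a partner of the adrenomedullin receptor, had 16.3, 16.1 and 6.1 against 1.29, 2.7 and 1.16 CPM (log2 -2.91 ± 0.48, adjusted p 0.0194). Ccn3, a matricellular protein related to Ccn2, had 100.3, 93.5 and 84.8 against 7.0, 11.9 and 28.6 CPM (log2 -2.54 ± 0.59, adjusted p 0.0473, and 0.0572 with the 12-library block).

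Prom1, prominin 1 of membrane protrusions, had 45.1, 58.1 and 67.3 CPM on the plate and 6.27, 14.0 and 4.27 CPM on the scaffold (log2 -2.81 ± 0.47, adjusted p 0.0209). Adgrf5, an adhesion receptor found on endothelium, had 286.9, 322.6 and 371.0 against 67.7, 83.6 and 14.7 CPM (log2 -2.56 ± 0.60, adjusted p 0.0492, and 0.0536 with the 6-library and 0.0745 with the 12-library block). On the side of rises, Cldn1, a claudin of tight junctions, had 3.81, 2.89 and 2.52 against 13.4, 32.8 and 10.9 CPM (log2 2.63 ± 0.49, adjusted p 0.027). Ckm, the creatine kinase of muscle, had 9.26, 4.49 and 7.67 against 53.9, 10.7 and 35.2 CPM (log2 2.22 ± 0.48, adjusted p 0.0409). Ifi205, an interferon-induced gene with close copies that make its counts uncertain, had 3.3, 4.42 and 3.63 against 10.5, 42.6 and 24 CPM (log2 2.77 ± 0.55, adjusted p 0.0324, and 0.0606 with the 12-library block). It was the 1 call of 35 interferon response genes (2.86%, beside 1.53% of all genes called higher), whose median was -0.21.

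Further lists held few calls in the fit without a block, to be read beside 1.53% of all genes called higher and 1.64% called lower. Of 23 immediate early genes 2 rose, Egr3 (log2 1.84 ± 0.40) and Myc (log2 0.84 ± 0.15), which answer to handling and growth signals. Among 16 antioxidant genes Srxn1 rose (log2 0.89 ± 0.21) and Nqo1 fell (log2 -1.06 ± 0.20), so that these targets of the same factor moved in opposite directions. Among 14 glucocorticoid-responsive genes Pdk4 rose (log2 1.44 ± 0.30) and Errfi1 fell (log2 -0.57 ± 0.10). Of 32 cytokine, chemokine and prostaglandin genes 1 fell, Il1b, which was at most 0.457 CPM in any of the 6 libraries. Egr3, Srxn1, Pdk4 and Il1b were not called with the 12-library block. In edgeR's test without a block 0 of 30 focal adhesion and actin genes passed, while 6 had an unadjusted p under 0.05 and DESeq2 called 3 higher and 2 lower. For the focal adhesion and actin genes the 6-library block gave 2 higher and 1 lower calls (4.81% and 5.69% of all genes). The 12-library block gave 1 and 0 (1.25% and 0.955%). Of 19 p53 targets 0 passed in edgeR without a block, and 6 had an unadjusted p under 0.05 (3798 of all 17700 genes did). In the p53 list 3 rose in DESeq2 (6.5% of all genes) and 1 in limma-voom (2.59%). With the 6-library block 4 rose (4.81% of all genes), and with the 12-library block 1 rose (1.25%). The medians of these lists were -0.06 and 0.33.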

How the data were processed

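Per the labels' protocols, Qiashredder columns and an RNeasy kit gave the RNA, and a TruSeq RNA v2 kit the libraries. The deposited values are raw read counts per Ensembl gene made by the authors with STAR 2.6.0 on GRCm38/mm10, per the submitters' processing notes. The counting program, annotation and strand setting were not given in sources used here, so a gene and its antisense partner cannot be told apart. Each sample had 2 technical runs per the series' design text, with no statement of how they were combined.

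Of 52550 genes, 52403 were given symbols and coordinates from GENCODE release M21 and 5 summary rows were left out. Genes were filtered with filterByExpr, scaled by TMM and tested in edgeR 4.0.16 (R 4.3.3) with the quasi-likelihood F test on the group alone in 12 libraries (8 residual degrees of freedom). P-values were adjusted by Benjamini-Hochberg over 17700 genes. The standard error is the size of the log2 fold change divided by the root of F. DESeq2 1.42.0 and limma 3.58.1 (voom) were among the alternatives. The floor of 3 counts is 0.0257 to 0.0924 CPM in the 6 libraries and covers counting error only. The fit was tested on simulated data, where many 2-fold changes were missed and its requirement was then relaxed to 4-fold changes. The simulation gave all genes the same dispersion and no replicate effect, so it does not set a detection limit for these libraries. A gene without a call can have changed by 2-fold or more, as with Slc2a1 at log2 2.23 ± 0.67.

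Same-numbered scaffold and plate libraries had correlated deviations from their group means, at 0.29, 0.196 and 0.304, against -0.228 to -0.06 for different numbers. The numbers were therefore taken as pairs in the fits with a block only. The main fit, which sets what is called higher or lower, does not use the pairs. This pairing comes from the data, since the labels do not say what a number shares. Deviations cancel out within each group, so positive values for same numbers go with negative ones for different numbers. The block was chosen from the same counts it was fitted to, and its p-values do not allow for that choice. Nothing in the labels names animals, so the p-values measure the spread between these samples.

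The 97 named genes are the 15 largest rises and 15 largest falls with at least 10 CPM and no overlap, up to 5 calls in the main and 2 in the other direction per list, and a panel of markers. L1cam and the further list members given without a call were chosen after their values were seen. Members and lists (40 lists, 818 genes tested) were chosen with earlier results of these data known. Promoter windows came from RefSeq (GRCm38.p6). Some named genes are not reported here.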

Additional observations from a re-analysis of the deposited data

How the results depend on the processing

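The 271 higher and 291 lower calls became 787 and 931 with the replicate block within the 6 libraries and 222 and 169 with the replicate block in all 12. They became 455 and 613 with only the 6 compared libraries, 1146 and 873 in DESeq2, 459 and 545 in limma-voom, and 8 and 6 with replicate 3 left out of both groups. Leaving out 1 library gave 7 to 225 higher and 11 to 131 lower genes. The cause was not tested, and the fits on fewer libraries also have fewer samples. RLE and upper quartile scaling and the filters on low counts stayed within 1.5 times of both counts. Of the 73 named calls, DESeq2 kept 73, upper quartile scaling 72, RLE 71, the fit without a low-count filter 70 and the 1 CPM filter 69. Limma-voom kept 67, the fit on only the 6 libraries 61 and the fit with replicate 3 left out of both groups 6. No named call changed direction in any of these fits, which is no further support, since the groups of called genes did not overlap. The block within the 6 libraries kept 70 (Egln3 and Adgrf5 lost, Il1b not fitted) and changed the calls printed beside genes in the text. With the block in all 12 libraries 23 named calls were lost, at adjusted p of 0.0511 to 0.0832: Sfrp4, Apln, Ifi205, Egln3, Mamdc2, C7, Egr3, Pdk4, Angptl2, Mrvi1, Srxn1, Lamb1, Stard4, Crim1, Ccn2, Meg3, Gata2, Ccn3, Trac, Adgrf5, Il1b, Ankrd1 and Cyp8b1. Depth limits genes near the floor of 3 counts, such as Il1b.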

Other observations

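The genes in the next paragraphs were chosen after their values were seen, so their calls are descriptions. Adjusted p-values are from edgeR over all 17700 genes. Kcne3, a small accessory subunit of potassium channels, had 0.0287, 0.203 and 0.0786 CPM on the plate and 12.6, 10.3 and 4.03 CPM on the scaffold (log2 6.41 ± 0.63, adjusted p 0.00359). P2rx1, an ion channel opened by ATP, went the other way, from 12.8, 1.45 and 8.33 to 0.215, 0.0621 and 0.171 CPM (log2 -5.59 ± 0.75, adjusted p 0.00969). Gja4, the connexin 37 of arterial endothelium, had 9.74, 3.78 and 8.59 against 0.369, 0.217 and 0.198 CPM (log2 -4.85 ± 0.59, adjusted p 0.00896). All 3 kept their call without any 1 of the 6 libraries. Adra1d, an adrenergic receptor, fell (log2 -2.08 ± 0.37). Kcnma1, the large calcium-activated potassium channel of smooth muscle, rose (log2 1.23 ± 0.23, adjusted p 0.029, and 0.0511 with the 12-library block).

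Some genes of secretory vesicles and neurites outside the neuronal list were picked from those called higher, so their shared direction is set by the choice. Dnm1, the dynamin of synaptic vesicle recycling, had 28.0, 19.6 and 29.1 CPM on the plate and 59.4, 67.3 and 90.3 CPM on the scaffold (log2 1.5 ± 0.19, adjusted p 0.00896). Cadps, which primes dense-core vesicles, had 11.7, 5.63 and 7.99 against 28.4, 20.6 and 28.6 CPM (log2 1.61 ± 0.25, adjusted p 0.015). The granule proteins Chgb, Scg3 and Vgf rose as well, with log2 fold changes of 1.49 ± 0.30, 1.27 ± 0.27 and 1.74 ± 0.34. Nes, nestin of neural progenitors and other immature cells, had 113.1, 92.0 and 147.2 against 254.7, 387.8 and 361.5 CPM (log2 1.51 ± 0.33, adjusted p 0.0409, and 0.0572 with the 12-library block).

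Several genes that act in RNA splicing or encode nuclear RNA were picked from those called lower, so their shared direction is set by the choice. Other splicing genes were called higher, among them Srpk2 (log2 0.48) and Celf6 (log2 1.23). Leng8 had 161.6, 182.7 and 190.2 CPM on the plate and 61.2, 71.9 and 76.1 CPM on the scaffold (log2 -1.35 ± 0.20, adjusted p 0.0141). Clk1, a kinase of splicing factors, had 73.0, 92.0 and 87.9 against 45.2, 39.0 and 48.0 CPM (log2 -0.94 ± 0.17, adjusted p 0.0255). Rsrp1, an arginine and serine rich protein, had 244.4, 264.0 and 274.0 against 69.3, 107.7 and 151.9 CPM (log2 -1.25 ± 0.28, adjusted p 0.0433, and 0.0714 with the 12-library block). Prpf4b had the smallest change of the 12 genes picked (log2 -0.47 ± 0.11, adjusted p 0.0473, and 0.0502 with the block within the 6 libraries).

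Among the matricellular CCN family, Ccn5 fell beside Ccn2 and Ccn3, from 209.6, 206.3 and 214.5 to 20.6, 41.3 and 69.9 CPM (log2 -2.25 ± 0.33, adjusted p 0.0137). Ccn4 had 168.7, 169.1 and 241.4 against 163.5, 229.6 and 239.4 CPM, with overlap (log2 0.13 ± 0.24, adjusted p 0.80). Sparcl1, a matricellular protein related to SPARC, had 475.1, 374.4 and 530.2 against 1277.6, 1249.0 and 1237.8 CPM (log2 1.45 ± 0.28, adjusted p 0.0305). Sulf1, which trims heparan sulfate, had 490.4, 340.3 and 305.3 against 120.8, 101.4 and 120.3 CPM (log2 -1.73 ± 0.26, adjusted p 0.0141).

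Xist and Y-linked genes were both detected in every library. Xist, transcribed from the inactive X chromosome, had 197.4, 403.9 and 174.2 CPM on the M plate and 112.7, 309.6 and 127.3 CPM on the M scaffold. Ddx3y, a gene of the Y chromosome, had 87.3, 32.1 and 71.2 against 71.0, 32.0 and 58.9 CPM. Replicate 2 was the highest in Xist and the lowest in Ddx3y in both groups, and the labels give no sex or animal number.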
